A study of Mus musculus with 35 samples.

Results

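The glucocorticoid receptor, encoded by Nr3c1, and a set of genes around it were followed in mouse liver on the morning after 1 inhalation of styrene. The set was written down by gene symbol: the receptor itself, the co-chaperones Fkbp4 and Fkbp5, the steroid-activating enzyme Hsd11b1, and the receptor targets Tsc22d3, Sgk1, Tat, Zbtb16 and Errfi1. A gene was measured where a probe set, a group of short probes on the array that reads 1 transcript, named it and no other gene. Of the 9 genes, 8 were measured, by 17 probe sets, among 17097 genes on the array. The level of Fkbp4 was not analysed here. Each gene is described by the brightest of its probe sets, taken as the mean over the 35 arrays, and the others are given as second readings of the same RNA.

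The livers came from 35 adult male, wild-type C57Bl/6 mice, an inbred laboratory strain, bought from Taconic. Every mouse sat alone in a wire-mesh cage and breathed either air or styrene, the monomer of polystyrene, for 6 hours. Air and the concentrations of 1, 5, 10, 20, 40 and 120 ppm had 5 mice each, labelled as biological replicates, with 1 array per mouse. All mice were killed with sodium pentobarbital and bled out the following morning, so every group, air included, shares that handling. The arrays read whole liver RNA, in which fewer cells of a type and less RNA per cell cannot be told apart.

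As background, the glucocorticoid receptor waits in the cytoplasm in a complex with the chaperone HSP90 and its co-chaperones. Corticosterone, the main glucocorticoid of mice, releases it to the nucleus, where it binds response elements in DNA and turns genes on or off. FKBP51, the product of Fkbp5, lowers the receptor's affinity for hormone and is itself induced by the receptor, which closes a short feedback loop. In liver the receptor is best known for raising enzymes of glucose production and amino acid breakdown in step with the daily rhythm of corticosterone.

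The receptor's classical response element is an inverted repeat of the arms AGAACA and TGTTCT around any 3 bases. It was searched for, on both strands, in RefSeq promoter windows of the GRCm38.p6 assembly, from 250 bases before to 50 bases after each annotated start. The looser core ACANNNTGT and the arm TGTTCT were searched in the same way, and both lie within the full element. The windows of the member genes numbered 15, for 7 members, with Fkbp4 among them. Nr3c1 was left out of this search and Zbtb16 was not matched. Of 32851 windows in the table, 3 hold the full element (0.00913%), 6.85% hold the core and 19% hold the arm. The following windows are shown because they hold the full element, no match, and a single arm, in the kinase gene Sgk1, in Fkbp5 and in Tsc22d3. Capitals mark the matches, and each sequence runs 5′ to 3′ on the gene's strand.

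Sgk1, chr10:21993640-21993939, plus strand: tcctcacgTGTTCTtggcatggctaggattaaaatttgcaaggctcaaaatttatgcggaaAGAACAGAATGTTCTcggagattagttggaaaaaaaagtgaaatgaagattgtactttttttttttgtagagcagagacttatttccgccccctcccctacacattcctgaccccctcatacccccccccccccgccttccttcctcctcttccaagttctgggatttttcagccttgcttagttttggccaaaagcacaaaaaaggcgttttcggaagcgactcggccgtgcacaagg
Fkbp5, chr17:28486100-28486399, minus strand: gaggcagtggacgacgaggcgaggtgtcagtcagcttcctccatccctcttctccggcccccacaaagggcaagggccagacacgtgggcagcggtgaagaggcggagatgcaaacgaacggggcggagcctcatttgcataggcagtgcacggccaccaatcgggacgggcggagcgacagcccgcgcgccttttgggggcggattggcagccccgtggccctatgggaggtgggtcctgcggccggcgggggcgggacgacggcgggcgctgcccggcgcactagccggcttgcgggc
Tsc22d3, chrX:140600473-140600772, minus strand: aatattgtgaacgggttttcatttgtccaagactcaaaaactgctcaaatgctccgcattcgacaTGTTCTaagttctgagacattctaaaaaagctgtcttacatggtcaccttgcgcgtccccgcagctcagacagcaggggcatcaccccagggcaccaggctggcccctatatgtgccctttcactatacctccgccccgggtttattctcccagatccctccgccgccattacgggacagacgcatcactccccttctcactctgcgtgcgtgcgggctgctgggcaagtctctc

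The full element in the Sgk1 window begins at position -189 from the start, and it was the only full match in the 15 windows. The Tsc22d3 arm begins at -185. Sgk1 has several annotated starts, and the core was found in 2 of its windows and in no window of another member. A match in these letters is a description of the sequence and not evidence of binding, and its absence speaks only of this window. The Fkbp5 gene itself spans chr17:28398753-28486149 in the same assembly, Sgk1 chr10:21882184-21999903 and Tsc22d3 chrX:140539528-140600522. Tat lies at chr8:109986078-109999804, Zbtb16 at chr9:48651797-48836225, Errfi1 at chr4:150853796-150868889 and Hsd11b1 at chr1:193221640-193264045.

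The deposited values are on a scale read as log2 from their range, 1.74 to 14.23, since its base is not given in the sources used here. Some facts of the whole series bear on what follows. Pearson correlations between arrays lay between 0.965 and 0.995. The array median rose from a mean of 3.50 in air to 3.57 at 40 ppm and 3.60 at 120 ppm (two-sided exact permutation p = 0.00794, the smallest that 5 against 5 can give, adjusted p = 0.0190 over 12 tests). The actin 3′ minus 5′ difference, a reading of RNA integrity and labelling, rose from 0.478 in air to 0.581 at 10 ppm (adjusted p = 0.0476 in the same exact test) and to between 0.706 and 0.724 at the 3 highest concentrations (adjusted p = 0.0190). The 8 measured hepatocyte markers were bright, with Alb, which encodes albumin, at a mean of 13.93. Of 11 Kupffer cell (liver macrophage) markers, limma called 0 at 20 ppm, where the median change was -0.45. At an unadjusted p under 0.05 there were 8, beside 12.2% of all probe sets. Called lower were 4 at 40 ppm and 6 at 120 ppm, beside 6.24% and 7.99% of all genes. The summed level of the 11 markers was 11.20 to 12.07 in air and 10.59 to 11.49 at 20 ppm. It was 10.92 to 11.24 at 40 ppm and 10.71 to 11.30 at 120 ppm. All 9 neutrophil markers were dim, with means from 2.76 to 4.00. At 120 ppm 1 of them, Prtn3, was higher, beside 11.2% of all genes. The 5 B cell markers were all dim, with means from 2.99 to 4.40. Of these, 1 was higher at 40 ppm and 3 at 120 ppm, beside 8.74% and 11.2% of all genes. The median change of the B cell markers at 120 ppm was 0.29. Their summed level was 5.92 to 6.17 in air and 6.23 to 6.41 at 120 ppm. The part of these shifts in the results below was not tested.

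The members differed widely in brightness on the array. Mean log2 levels over the 35 arrays were 12.57 for Errfi1, 12.06 for Tat, 11.60 for Hsd11b1 and 10.02 for Tsc22d3. Fkbp5 had a mean of 8.78, Sgk1 of 7.76, Zbtb16 of 7.12 and Nr3c1 of 7.00. Probe sets differ in affinity, so these values place each probe set on the array and do not rank the transcripts.

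**Figure D1:**
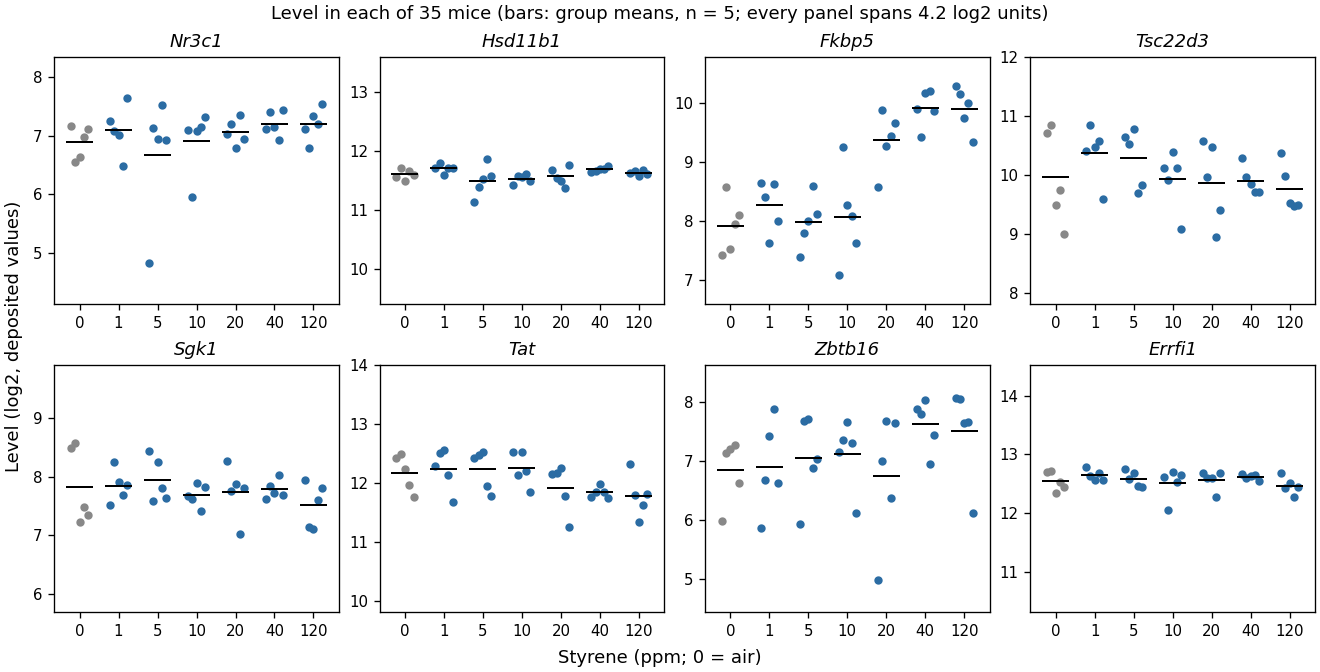
Log2 level of each of the 8 measured genes in every mouse (points, 5 per group) with the group mean, by styrene concentration. For Fkbp5 the points of 40 and 120 ppm, from 9.34 upward, sit above every point of air to 10 ppm, while the other genes' groups overlap with air.

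Fkbp5 was the member that rose. It was not called at 1, 5 or 10 ppm, was 2.74-fold higher at 20 ppm, and was about 4-fold higher at 40 and 120 ppm. In the 5 air mice its log2 level was 7.42, 8.58, 7.53, 7.95 and 8.10, a mean of 7.92 ± 0.47 (SD, n = 5). At 20 ppm the values were 8.58, 9.88, 9.27, 9.44 and 9.67. These groups met at their ends, the highest air mouse and the lowest 20 ppm mouse both at 8.58. At 40 ppm the values were 9.91, 9.43, 10.17, 10.21 and 9.88. At 120 ppm they were 10.29, 10.16, 9.75, 10.00 and 9.34. Every mouse of these 2 groups lay above every mouse of air to 10 ppm, and 1.17% of all genes showed that order of arrays in the upward direction. The nearest value from below, 9.27, was the second mouse at 10 ppm, the group with the widest spread (7.09, 9.27, 8.28, 8.09 and 7.64, SD 0.81).

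The log2 change of Fkbp5 against air came to 1.46 ± 0.29 (SE) at 20 ppm, 2.00 ± 0.29 at 40 ppm and 1.99 ± 0.29 at 120 ppm. limma's adjusted p over all probe sets was 0.0127 at the first of these, 4.60e-05 at the next and 3.69e-05 at the last. Fkbp5 was thus 1 of 8 members called at each of these concentrations, where the share of all genes called was 1.46%, 15% and 19.2%. The 95% interval was 0.86 to 2.05 at 20 ppm and 1.40 to 2.59 at 120 ppm. The 20 ppm call was lost, at an adjusted p of 0.0711, when the second 20 ppm mouse was left out, and at 0.0926 when the spread came from the air and 20 ppm mice alone. All 6 comparisons use the same air mice, so they are not independent of each other.

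At the low concentrations no change of Fkbp5 was called. The 1, 5 and 10 ppm groups differed from air by 0.35, 0.07 and 0.16 (log2, each ± 0.29), with adjusted p of 0.968, 0.994 and 0.978. Between neighbouring concentrations, 20 ppm was higher than 10 ppm by 1.30 ± 0.29 (adjusted p = 0.0419, with 0.474% of genes called in that comparison). That step lost its call without any one of 10 ppm mice 1, 3, 4 and 5 or 20 ppm mice 2, 4 and 5, with values from 1.05 to 1.35 and adjusted p up to 0.211. The 2 groups overlapped. From 20 to 40 ppm the difference was 0.55 (interval -0.05 to 1.14, adjusted p = 0.415, with 0.339% of genes called). From 40 to 120 ppm it was -0.01 (interval -0.61 to 0.59, with 0.0409% of genes called), so no further rise was called over the last step. Ordered by mean, the levels ran air 7.92, 5 ppm 7.99, 10 ppm 8.07, 1 ppm 8.27, 20 ppm 9.37, 120 ppm 9.91 and 40 ppm 9.92.

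Fkbp5 was also the member called in the moderated F test over the 7 groups (adjusted p = 6.56e-07, with 21.5% of all genes called). A second probe set of the gene followed the first closely over the 35 arrays (r = 0.99) and gave changes of 1.44, 1.94 and 1.96 at 20, 40 and 120 ppm. The remaining probe set sat near the bottom of the array's range, at a mean of 2.34, and gave -0.16, -0.17 and -0.17, none of them called. At the concentrations where Fkbp5 rose, 0 of 11 Kupffer cell markers at 20 ppm, 4 at 40 ppm and 6 at 120 ppm were called lower. The shares of all genes called lower were 0.959%, 6.24% and 7.99%. At 20 ppm the markers' median change was -0.45, and 8 had an unadjusted limma p under 0.05, beside 12.2% of all probe sets. The part of the Kupffer cell markers in the result was not tested.

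The receptor gene Nr3c1 was not called at any concentration by its main probe set. Its log2 level in air was 7.16, 6.55, 6.63, 6.97 and 7.11, and at 120 ppm it was 7.11, 6.79, 7.33, 7.19 and 7.53. The groups overlapped, and the mean was 6.88 ± 0.28 in air and 7.19 ± 0.28 at 120 ppm. The change was 0.18, 0.32 and 0.30 ± 0.30 at 20, 40 and 120 ppm (adjusted p = 0.889, 0.505 and 0.499), and the last interval, -0.30 to 0.91, reached well above 0. Other probe sets of the gene did not speak with 1 voice. At 120 ppm the second in brightness gave 0.47 (adjusted p = 0.0863), another gave 0.54 and was called (adjusted p = 0.0322), and another gave 0.48 (adjusted p = 0.233). The dimmest, at a mean of 3.64, was lower by an adjusted p of 0.0248, with a change of -0.30. Which of them reads the receptor's main transcript was not determined.

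Hsd11b1 encodes the enzyme that regenerates active glucocorticoid inside liver cells. It was bright and steady. Air mice lay at 11.56, 11.70, 11.49, 11.66 and 11.59, and 120 ppm mice at 11.62, 11.67, 11.58, 11.68 and 11.60. The 120 ppm mice lay inside the span of the air mice. The change at 120 ppm was 0.03 ± 0.09 (adjusted p = 0.857, interval -0.15 to 0.20). The widest group was 5 ppm, from 11.13 to 11.86.

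Tat encodes tyrosine aminotransferase, the first enzyme of tyrosine breakdown and a textbook glucocorticoid-induced gene of liver. Its mean was below that of air at 20, 40 and 120 ppm and not at 1, 5 or 10 ppm. The moderated F test over the 7 groups did not call it (adjusted p = 0.165). Air mice lay at 12.42, 12.49, 12.24, 11.96 and 11.75, and 120 ppm mice at 12.33, 11.79, 11.34, 11.63 and 11.81. The groups overlapped, and 40 ppm was a tight group of 11.77, 11.85, 11.98, 11.85 and 11.74. Group means were 12.17 in air, 12.23, 12.23 and 12.25 at 1, 5 and 10 ppm, then 11.92, 11.84 and 11.78 at 20, 40 and 120 ppm. No single concentration was called: the change was -0.25, -0.34 and -0.39 ± 0.19, with adjusted p of 0.665, 0.243 and 0.143. The 120 ppm interval, not adjusted for the number of tests, was -0.78 to -0.0047. The slope over log2(ppm + 1) was called at -0.07 ± 0.02 per unit (adjusted p = 0.0163), where 33% of all genes were called. That call was lost without the replicates numbered 2 (adjusted p = 0.101) or 3 (0.0989). Fkbp5, the other of the 2 members called in the slope by the main probe set, had 0.33 ± 0.04 per unit (adjusted p = 2.86e-06). A dim Tsc22d3 probe set was also called in the slope, at -0.07 (adjusted p = 0.00493), and its brighter ones were not. For Nr3c1 a probe set at 0.07 (adjusted p = 0.00701) and the dimmest at -0.04 (0.00745) were called. The remaining Nr3c1 probe sets were not. At 120 ppm Tat passed when the order of the animals was taken into account (adjusted p = 0.0466).

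Tsc22d3 encodes GILZ, a leucine zipper protein that carries part of the anti-inflammatory action of glucocorticoids. It varied more between mice of a group than between groups. In air it was 10.71, 10.85, 9.49, 9.75 and 9.01, the widest group of the 7. At 120 ppm it was 10.37, 9.98, 9.52, 9.48 and 9.50, inside the span of the air mice. The change was -0.09, -0.06 and -0.19 ± 0.32 at 20, 40 and 120 ppm, with adjusted p of 0.955, 0.928 and 0.709. The interval at 120 ppm, -0.84 to 0.45, lay below that of Fkbp5. A second bright probe set gave -0.09 at 120 ppm, and a dim one, at a mean of 4.92, gave -0.48 and was called (adjusted p = 0.0473).

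Sgk1 encodes a serum- and glucocorticoid-regulated kinase, and 1 of its several promoter windows holds the full element shown above. Air mice lay at 8.48, 8.57, 7.23, 7.49 and 7.34, and 120 ppm mice at 7.95, 7.14, 7.10, 7.61 and 7.80. The air mice fell into a high pair and a low trio, and the 120 ppm mice all lay below the pair. The change was -0.08, -0.04 and -0.30 ± 0.23 at 20, 40 and 120 ppm (adjusted p = 0.941, 0.929 and 0.363), with an interval of -0.77 to 0.16 at 120 ppm.

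Zbtb16 encodes PLZF, a zinc finger repressor induced by glucocorticoids in many cells. Its mean was highest at 40 and 120 ppm, but its SE was the largest of the set and it was not called. Air mice lay at 5.99, 7.14, 7.20, 7.28 and 6.64, and 20 ppm mice from 4.99 to 7.68. At 40 ppm the values were 7.89, 7.80, 8.05, 6.95 and 7.45, and at 120 ppm they were 8.08, 8.06, 7.65, 7.67 and 6.12. In each case the lowest mouse overlapped with air. The change was -0.11, 0.78 and 0.67 ± 0.43 at 20, 40 and 120 ppm (adjusted p = 0.962, 0.230 and 0.286). At 40 ppm it passed, at an adjusted p of 0.0429, when only the air and 40 ppm mice gave the spread. Its interval at 120 ppm, -0.22 to 1.55, overlapped with that of Fkbp5.

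Errfi1 encodes MIG6, a feedback inhibitor of the EGF receptor. Its level in air was 12.71, 12.72, 12.35, 12.53 and 12.44, and at 120 ppm it was 12.69, 12.44, 12.51, 12.28 and 12.44. The groups overlapped over almost their whole length. The change was 0.02, 0.07 and -0.08 ± 0.10 at 20, 40 and 120 ppm (adjusted p = 0.970, 0.687 and 0.608), with an interval of -0.29 to 0.13 at 120 ppm.

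**Figure D2:**
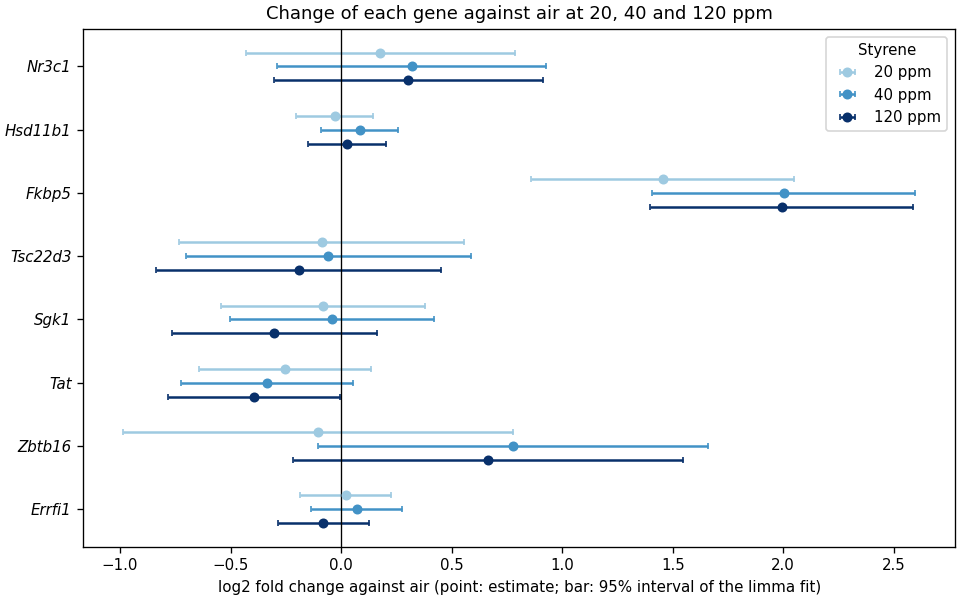
Log2 change against air of each of the 8 genes at 20, 40 and 120 ppm, with limma's 95% interval. The Fkbp5 intervals lie above 0 at all 3 concentrations, from 0.86 at the lowest, and the intervals of the other genes span 0 except that of Tat at 120 ppm, which ends just below 0.

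At 1, 5 and 10 ppm none of the 8 members had a change called by limma. Their changes ran from 0.02 to 0.42 at 1 ppm, from -0.22 to 0.34 at 5 ppm and from -0.14 to 0.27 at 10 ppm. limma called 0 of 8 at each, with a lowest adjusted p of 0.916, where 0%, 0.0526% and 0% of all genes were called. At an unadjusted p under 0.05 there were 0 of 8 at each, beside 5.63%, 7.08% and 6.37% of all probe sets. By the exact permutation test, 1 of the members' changes, that of Hsd11b1 at 1 ppm (0.10), had an unadjusted p of 0.0476. With 5 mice a group, the SE of a change was 0.09 for Hsd11b1 and 0.43 for Zbtb16, so small changes were not detectable for the more variable genes.

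Within the groups, Tsc22d3 and Tat fell with the order of the animals. The labels number the animals, and the numbers rise with concentration, from 1 to 8 in air to 49 to 56 at 120 ppm, so order can be read only inside a group. Placing the 5 mice of each group from lowest to highest number, the mean of Tsc22d3 over the 7 groups was 10.45, 10.30, 10.14, 9.75 and 9.45. That is a fall of 0.25 ± 0.04 (SE) per place, and the mouse with the highest number was below the one with the lowest number in 7 of 7 groups. limma's adjusted p was 0.000333, and 3.11% of all genes were called. Tat showed means of 12.27, 12.20, 12.20, 11.93 and 11.69, and its slope was -0.14 ± 0.03 per place (adjusted p = 0.00197), again with the last below the first in 7 of 7 groups. The 2 other probe sets of Tsc22d3 gave -0.25 (adjusted p = 0.000555) and -0.12 (adjusted p = 0.00815). What the animal numbers followed, such as the time of death, is not given in the sources used here.

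The remaining 6 members were not called for the slope on place, which reads only a steady rise or fall. Over the 7 groups the means of Zbtb16 by place were 6.56, 7.39, 7.63, 7.19 and 6.81, highest in the middle. That shape was not tested. The slope was -0.08 for Sgk1 (adjusted p = 0.426), -0.03 for Errfi1 (0.457), 0.12 for Nr3c1 (0.346), 0.02 for Hsd11b1 (0.606), 0.03 for Zbtb16 (0.938) and 0.03 ± 0.06 for Fkbp5 (0.885). Fkbp5 thus differed between concentrations and had no called order within groups. Tsc22d3 had a called order and, by its main probe set, no called concentration. Between groups the animal numbers run with concentration, so their parts cannot be told apart there, for Fkbp5 as for the other members. Whether the slopes differ between these genes was not tested.

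**Figure D3:**
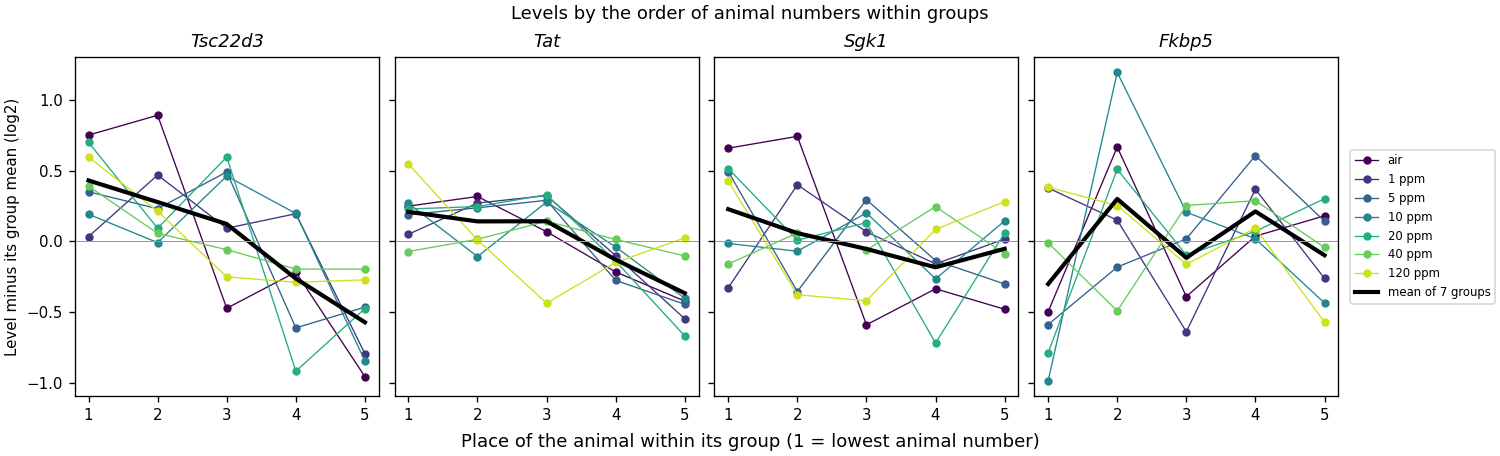
Log2 level of Tsc22d3, Tat, Sgk1 and Fkbp5 minus the mean of the mouse's own group, by the animal's place in its group (1 is the lowest number). Thin lines are the 7 groups and the black line is their mean, which falls by 0.25 per place for Tsc22d3 and by 0.14 for Tat.

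How the members varied together was described after the group means had been taken out, over 35 arrays and 28 pairs. Tsc22d3 and Tat had the highest value with only the group means removed, with r = 0.80 (rho = 0.80), 0.81 without the 2 most extreme mice and 0.58 once place was also taken out. Tsc22d3 with Sgk1 had r = 0.62, and 0.60 once place was taken out, which is then above the value with Tat. The next pairs were Sgk1 with Errfi1 (0.55) and Tsc22d3 with Errfi1 (0.54). Fkbp5 stood outside this group, at -0.04 with Tsc22d3, -0.14 with Tat and -0.14 with Sgk1. It went with Hsd11b1 at 0.48 and with Zbtb16 at 0.39. These values share the arrays' normalization and are descriptions without a test.

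Among 10502 other genes above the array's median brightness, the 3 most like Fkbp5 over the 35 arrays were St3gal5, Nr1i3 and Nrbp2. St3gal5, which encodes the sialyltransferase that makes the ganglioside GM3, had r = 0.98 over all arrays (rho = 0.97) and 0.92 within groups. Its level was 7.94 ± 0.30 in air and 9.46 ± 0.45 at 120 ppm, and its change was 1.29, 1.77 and 1.52 at 20, 40 and 120 ppm. Nr1i3, which encodes the drug-sensing receptor CAR, had r = 0.94 (0.75 within groups), with 8.62 ± 0.21 in air and 10.10 ± 0.18 at 120 ppm. Nrbp2, a pseudokinase gene, had r = 0.94 (0.74 within groups) and a change of 0.79, 1.00 and 1.11. The 3 genes were chosen for following Fkbp5 over these same arrays, so their changes at the concentrations where it rose are a description, with no test. Part of each likeness over all arrays comes from the shared steps between groups, and the likeness within groups does not. The likeness within groups is also part of the value by which the 3 genes were chosen, so it too is a description.

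**Figure D4:**
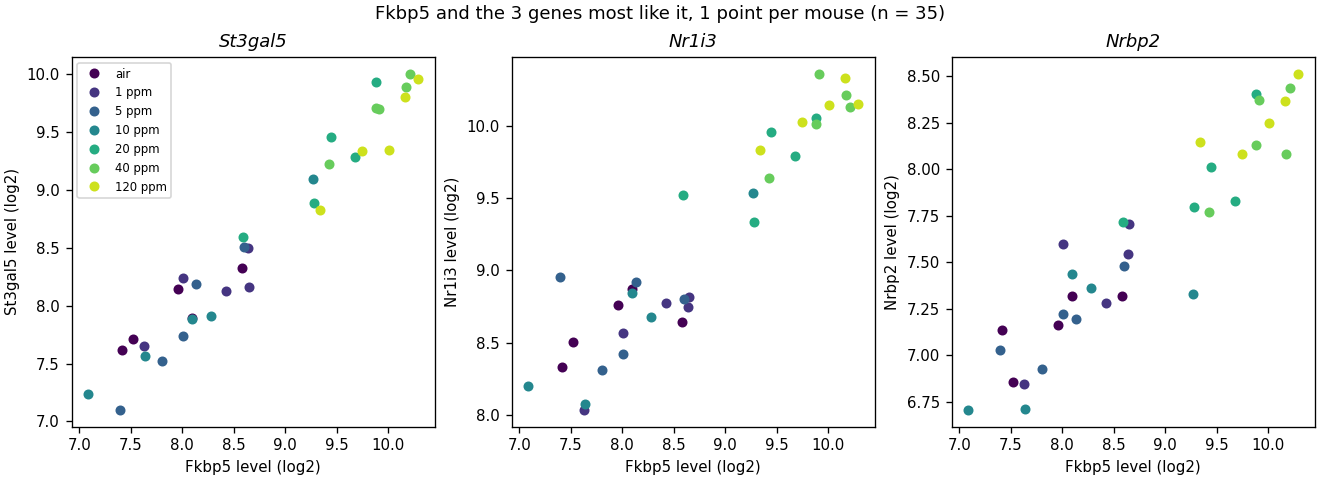
Log2 level of Fkbp5 and of the 3 genes most like it in each of the 35 mice, by styrene concentration. All 4 genes have higher means from 20 ppm on, with the 120 ppm mean of Fkbp5 at 9.91 against 7.92 in air.

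The other genes of the pathway were counted from lists of the receptor's machinery, hormone supply, co-regulators and targets. Of the machinery genes other than the members, 13 were measured, and they include the HSP90 chaperones and their partners. By limma, 0 passed at 20 ppm, with 1 at an unadjusted p under 0.05 beside 12.2% of all probe sets. Called lower were 2 at 40 ppm and 3 at 120 ppm. The list's median change at 120 ppm was -0.22, beside 0.04 over all genes. Of all genes, 6.24% were lower at 40 ppm and 7.99% at 120 ppm. Stip1, which hands client proteins from HSP70 to HSP90, fell by 1.03 ± 0.13 (SE) at 120 ppm (adjusted p = 6.24e-06). The HSP40 gene Dnajb1 fell by 0.85 (adjusted p = 0.00268) and Hsp90aa1, the inducible HSP90, fell by 1.36 ± 0.36 (adjusted p = 0.00875). Hsp90ab1 was not analysed here. Fkbp5 therefore rose while these 3 chaperone genes fell.

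Among 10 other genes of hormone supply and breakdown, 1 rose and 1 fell at 40 ppm, where 8.74% of all genes were higher and 6.24% lower. At 120 ppm 1 rose and 2 fell, with a median of 0.05, where 11.2% of all genes were higher and 7.99% lower. Serpina6, which encodes the corticosteroid-binding globulin of blood, fell by 0.95 ± 0.28 (adjusted p = 0.0158), from 10.32 to 9.37. Akr1d1, a steroid reductase gene that clears glucocorticoids, rose by 1.04 (adjusted p = 0.0101), and Hsd3b5, a steroid dehydrogenase gene of male mouse liver, fell by 1.45 (adjusted p = 0.00575). The mineralocorticoid receptor gene Nr3c2 had a change of 0.42 that was not called (adjusted p = 0.151). Of 10 measured co-regulators, 2 rose and 1 fell at 40 ppm, and 3 rose and 1 fell at 120 ppm, with a median of 0.12, beside the same shares of all genes. The corepressor gene Nrip1 rose by 0.62 (adjusted p = 0.000813), Cbx3 by 0.39 (0.0123) and the Mediator gene Med1 by 0.37 (0.0440), and Tle3 fell by 0.48 (0.0140).

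Among 26 further genes that glucocorticoids induce, 0 passed at 20 ppm by limma. At an unadjusted p under 0.05 there were 8, beside 12.2% of all probe sets. At 40 ppm 5 rose and 2 fell (beside 8.74% and 6.24% of all genes), and at 120 ppm 7 rose and 4 fell. The median change of the 26 genes at 120 ppm was -0.12. The share of all genes that passed at 120 ppm was 11.2% upward and 7.99% downward. The clock gene Per1 rose by 1.07 ± 0.29 (adjusted p = 0.0103) and Klf9, a transcription factor gene, by 0.46 (0.0369). The clock gene Cry2 rose by 0.77 (0.00130), Mertk by 0.62 (0.00211) and Lcn2, a secreted acute-phase protein gene, by 4.74 (7.12e-06). Igfbp1, which encodes a binding protein of insulin-like growth factors, fell by 1.55 (0.00717). The phosphatase gene Dusp1 had -0.76 (0.0702), and Tdo2, a tryptophan-degrading enzyme gene, had 0.11 (0.528). Pck1, of glucose production, had 0.29 (0.0796) at a dim level of 3.02 in air. Thus 11 of 26 passed, in both directions. Several of these genes also answer to the clock, feeding or inflammation.

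Of 12 inflammatory genes that the receptor is known to repress, 0 passed at 20 and 40 ppm by limma. At an unadjusted p under 0.05 there were 3 and 2, beside 12.2% and 29.5% of all probe sets. At 120 ppm 1 rose and 1 fell, where 19.2% of all genes were called. The chemokine gene Cxcl10 fell by 0.62 (adjusted p = 0.0258) and the adhesion gene Vcam1 rose by 0.28 (0.0443), both from levels under 5. The median of the list was -0.05. These genes are expressed in part by macrophages and other non-hepatocyte cells. At 120 ppm 6 of 11 Kupffer cell markers were lower, beside 7.99% of all genes. The part of that in these values was not tested.

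**Figure D5:**
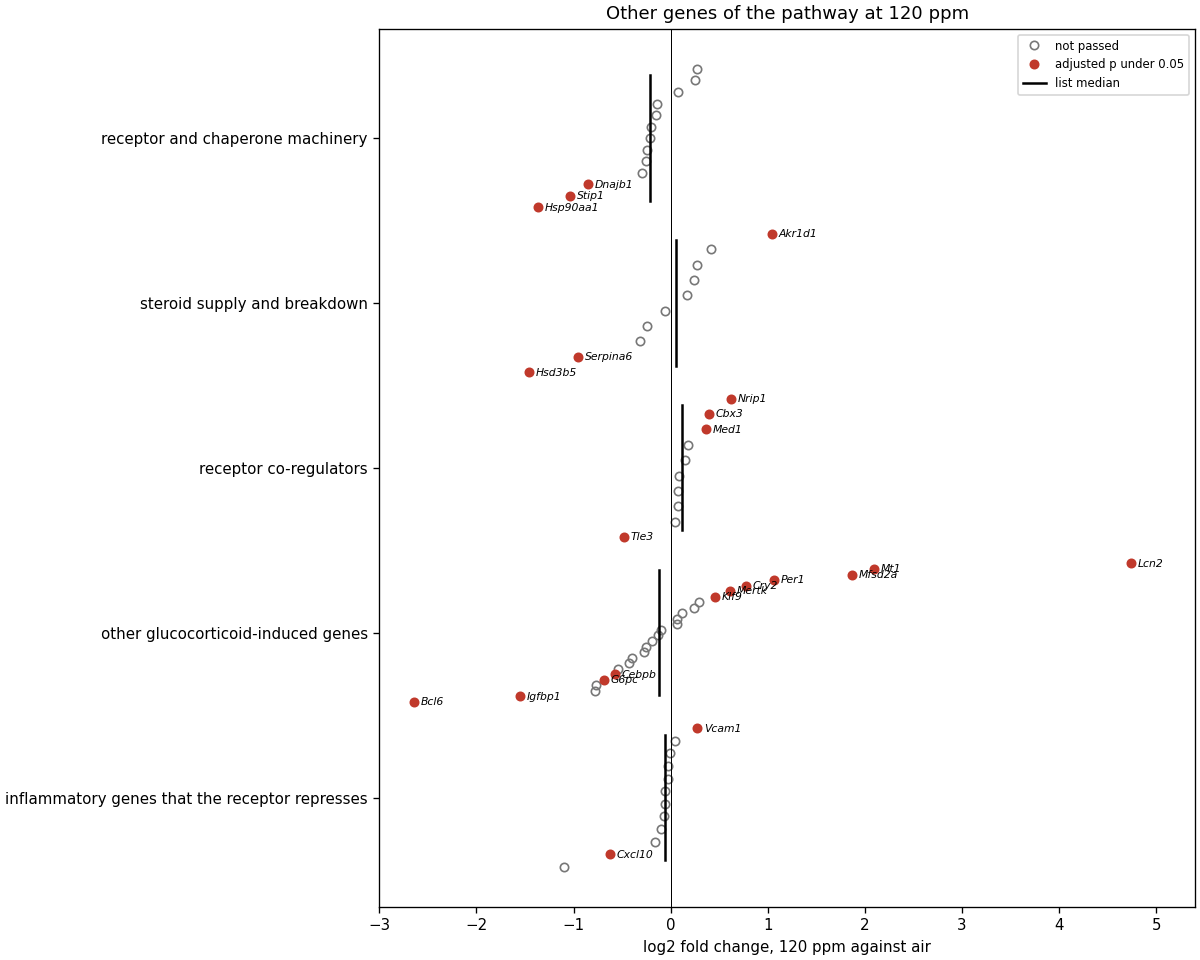
Log2 change at 120 ppm against air of each measured gene in the 5 lists, members left out, with the median of each list as a bar. Filled points passed at an adjusted p under 0.05, among them Lcn2 at 4.74 and Hsp90aa1 at -1.36, and each list holds points on both sides of 0.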

How the data were processed

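Liver RNA of 35 mice was read on Affymetrix 3' IVT arrays, 1 per mouse. The authors deposited 1 normalized value per probe set and array, made with RMA and Partek per the submitters' processing notes, where no version is given. The deposited values are taken as log2, from their range; no further normalization was added. The array's precision is limited by the number of mice, and no measure of signal over background was used here. Of 45141 probe sets, 104 controls were left out, 45037 were tested and 28898 name 1 gene.

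In R 4.3.3, limma 3.58.1 (lmFit and eBayes) fitted a mean for each of the 7 groups over all arrays, with 28 residual degrees of freedom. Contrasts against air and between neighbouring concentrations, a moderated F test, a slope on log2(ppm + 1) and a slope on the animal's place within its group were two-sided, with Benjamini-Hochberg adjustment over all tested probe sets and a threshold of 0.05. The fit was tested on simulated data. The data.table package was version 1.17.8, and figures were drawn in Python 3.11.15 with pandas 2.3.3 and matplotlib 3.10.9.

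The genes named are the listed members, the 3 genes most correlated with each member called in the F test, up to 4 passing genes per list at 120 ppm by smallest adjusted p, and 9 genes named whatever their values. Counts of probe sets called over the whole array are in the closing section. The members and lists were chosen with earlier results of these data known. Labels call the mice biological replicates and give no batch. Alternatives were centring, another quantile normalization, a brightness filter, array weights, an intensity-dependent prior, animal order and a replicate block. Others used the compared groups alone or other probe sets. The contrasts were also run without each mouse in turn, and the F test and slope without all mice of each replicate number.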

Additional observations from a re-analysis of the deposited data

Results flagged for a closer look

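Among 56 sets of 5 mice (8 genes in 7 groups), 5 had a mouse that stood far from the other 4, where chance gives about 2.8 (1 in 20). All 5 were low values. Nr3c1 was 4.84 in 1 mouse at 5 ppm, where the others lay from 6.92 to 7.52, and 5.95 in 1 mouse at 10 ppm, where the others lay from 7.07 to 7.31. In both mice 3 of the 4 other Nr3c1 probe sets were the lowest of the group too, at 5.76 and 5.97 on the brightest of them, and the dimmest probe set was not. The 10 ppm mouse was also the one with the highest Fkbp5 of its group, 9.27, and with a low Errfi1 of 12.05, where the others lay from 12.54 to 12.71. Zbtb16 was 6.12 in 1 mouse at 120 ppm, where the others lay from 7.65 to 8.08, and its second probe set was the lowest there too, at 4.88. Errfi1 was 12.28 in 1 mouse at 20 ppm, where the others lay from 12.59 to 12.69.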

How the results depend on the processing

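The change of Fkbp5 kept its direction in all 18 alternatives that used its main probe set, at 1.33 to 1.65 for 20 ppm, 1.88 to 2.17 for 40 ppm and 1.87 to 2.16 for 120 ppm. At 40 and 120 ppm the adjusted p stayed at or under 0.000324, and at 20 ppm it reached 0.0926. The dim Fkbp5 probe set gave -0.16, -0.17 and -0.17, and the dimmest Nr3c1 probe set gave -0.31 at 40 ppm and -0.30 at 120 ppm, where the main one gave 0.32 and 0.30. Of all 1134 member changes and 104 slopes run, 92 and 4 changed sign while called in neither setting, and the cause was not tested. With the spread taken from the groups compared alone, 0 members were called at 20 ppm, 0 from 10 to 20 ppm and 2 at 40 ppm. With animal order as a covariate, 2 members were called at 120 ppm and 2 in the F test. Added after seeing the data, 9 other settings of the place slope kept Tsc22d3 between -0.27 and -0.22 and Tat between -0.16 and -0.13, all called.

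The replicate numbers, which run with animal number within a group, were not taken to pair the mice. Deviations of same-numbered mice correlated from -0.18 to 0.34, with 9 of 30 pairs over 0.1 and those of number 5 all above 0 (0.07 to 0.34). Of 30 air mice by concentration, 7 matched best with their own number, where chance gives 20%. The replicate block gave 2 members called at 120 ppm and 2 in the F test in place of 1, the second being Tat (-0.39, adjusted p = 0.0443), and changed no other member's call.

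Over all probe sets, 2, 69, 0, 466, 6586 and 8727 were called at 1, 5, 10, 20, 40 and 120 ppm, 157 from 10 to 20 ppm and 14414 in the slope. Brighter probe sets alone gave 6 at 10 ppm, 5767 at 120 ppm, 279 from 10 to 20 ppm and 8890 in the slope, with fewer features tested. Array weights gave 10, 217, 7 and 1037 at 1, 5, 10 and 20 ppm and 619 from 10 to 20 ppm. A second quantile normalization gave 4 at 10 ppm and the intensity-dependent prior 1 at 1 ppm. The groups compared alone gave 0, 1 and 0 at 1, 5 and 20 ppm and 0 from 10 to 20 ppm. Leaving out 1 mouse gave 0 to 6, 22 to 120 and 0 to 2 probe sets at 1, 5 and 10 ppm. At 20, 40 and 120 ppm it gave 37 to 1109, 4397 to 6226 and 6048 to 8115. From 10 to 20 ppm it gave 0 to 521. Leaving out all mice of 1 replicate number, 1 from every group, gave 4867 to 6534 in the F test (9177 with all mice). The same gave 10061 to 12958 in the slope. Of the members, 0 to 1 were called at 20 ppm and from 10 to 20 ppm with 1 mouse left out. With 1 replicate number left out, 1 to 2 were called in the F test and 1 to 2 in the slope.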
